A study of Rattus norvegicus with 11 samples.

Results

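The 9 genes described are ligands and receptors of transforming growth factor beta (TGF-beta) and bone morphogenetic protein (BMP) signalling, chosen by symbol: the ligands Tgfb1, Tgfb2, Tgfb3, Bmp4 and Inhba, the receptors Tgfbr1, Tgfbr2 and Tgfbr3, and the decoy receptor Bambi. A probe set was taken where the platform annotation gives that symbol and no other. This found 11 of the 15866 probe sets tested, for 8 of the 9 genes among 10411 genes with a single symbol. Tgfb2, Tgfbr1 and Tgfbr3 have 2 probe sets each, and Tgfbr2 is not analysed here.

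RNA came from REF52 cells, an established line of rat embryo fibroblasts, and was hybridised to 11 one-colour Affymetrix RAE230A arrays. All cells grew in 10% serum, spent 48 hours at 0.25% serum and were then given an adenovirus. The 6 groups are E2F1 virus in serum deprivation (2 arrays), E2F1 virus in serum with LY294002 (2), E2F1 virus in serum (2), control virus (CMV) in serum deprivation (1), control virus in serum with LY294002 (2) and control virus in serum (2). E2F1 is a transcription factor that drives genes of the cell cycle, and LY294002 inhibits phosphoinositide 3-kinase (PI3K). The time after infection, the share of infected cells and the promoter that drives E2F1 in the virus are not stated in the labels, and E2f1 itself is not analysed here. Nothing in the labels says that the 2 arrays of a group come from separate cultures, so p-values cover only the spread from array to array, which may be technical.

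The values are array signals on a linear scale with a trimmed mean of 500 on every array, and the array medians lay between 173 and 208. Of 11 fibroblast markers, 8 lay above the median probe set, among them the collagen Col1a2 with a median signal of 18530, while Thy1 (36.0 to 124) and Pdgfra (13.7 to 202) were low. The summed fibroblast markers ran from 75483 to 98097 on E2F1 arrays and from 85441 to 111420 on control virus arrays. Epithelial markers summed to 197 to 466 on E2F1 arrays and 245 to 691 on control virus arrays, with 1 of 7 above the median probe set (Krt8). Endothelial markers summed to 130.0 to 191 on E2F1 arrays and 60.6 to 135 on control virus arrays (0 of 4 above), and leukocyte markers to 573 to 652 on E2F1 arrays and 515 to 748 on control virus arrays (1 of 7 above, Cd14). Control probe sets at the 3' end exceeded those at the 5' end, a measure of RNA integrity, by 0.51 to 0.76 on the log2 scale in the 3 deprived arrays, by 0.90 in the second E2F1 array with LY294002 and by 0.12 to 0.33 elsewhere.

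TGF-beta and activin ligands bind pairs of type I and type II receptor kinases, and the type I receptor then phosphorylates SMAD2 and SMAD3, which enter the nucleus with SMAD4. BMP ligands use other receptor pairs and SMAD1, SMAD5 and SMAD9, with the Id genes among the targets. In fibroblasts TGF-beta is best known for raising matrix and contractile genes and for acting on proliferation in a way that depends on the cell type. Betaglycan, the product of Tgfbr3, is a co-receptor that presents TGF-beta ligands, TGF-beta 2 above all, to the signalling receptors, and Bambi resembles a type I receptor without a kinase domain.

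The promoter windows of 4 of the genes that differed between viruses on average are shown because the results turn on these genes: Tgfb3 and Tgfb2, whose signals ran alike over the arrays, Bmp4, and Tgfbr1, which went the other way. Each window holds 300 bases, 250 before and 50 after the gene's start in RefSeq, assembly GRCr8, 5′ to 3′ on the gene's own strand, and all 9 genes have such a window. Capitals mark the GC box GGGCGG on either strand, a motif that the factor SP1 is known to bind.
Tgfb3, chr6:111456897-111457196, minus strand: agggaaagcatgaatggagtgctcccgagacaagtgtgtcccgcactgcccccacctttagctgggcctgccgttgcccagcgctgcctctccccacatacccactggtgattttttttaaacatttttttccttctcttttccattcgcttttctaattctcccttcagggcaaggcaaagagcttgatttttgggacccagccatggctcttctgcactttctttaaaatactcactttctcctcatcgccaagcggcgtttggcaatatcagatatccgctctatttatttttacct
Tgfb2, chr13:100792636-100792935, minus strand: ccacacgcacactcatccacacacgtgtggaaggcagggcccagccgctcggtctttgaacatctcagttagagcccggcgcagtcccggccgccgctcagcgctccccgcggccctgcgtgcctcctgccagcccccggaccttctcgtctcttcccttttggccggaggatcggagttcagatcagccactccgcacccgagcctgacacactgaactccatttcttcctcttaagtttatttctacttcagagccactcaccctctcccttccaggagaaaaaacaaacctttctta
Bmp4, chr15:22101884-22102183, minus strand: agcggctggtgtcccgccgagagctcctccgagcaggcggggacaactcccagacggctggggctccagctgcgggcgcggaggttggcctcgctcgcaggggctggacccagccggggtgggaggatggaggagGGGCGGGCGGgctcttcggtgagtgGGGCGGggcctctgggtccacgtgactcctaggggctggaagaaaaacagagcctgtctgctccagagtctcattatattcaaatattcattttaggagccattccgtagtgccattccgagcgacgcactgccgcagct
Tgfbr1, chr5:66449148-66449447, plus strand: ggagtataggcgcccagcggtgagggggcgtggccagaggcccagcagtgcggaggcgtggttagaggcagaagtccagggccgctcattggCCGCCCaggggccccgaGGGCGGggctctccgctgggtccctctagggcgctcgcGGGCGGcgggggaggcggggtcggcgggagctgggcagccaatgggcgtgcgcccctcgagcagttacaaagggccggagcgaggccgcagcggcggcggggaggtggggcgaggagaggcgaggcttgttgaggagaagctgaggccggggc
The 4 windows differ in base composition, with a GC content of 47.7% in Tgfb3, 59% in Tgfb2, 65% in Bmp4 and 74.7% in Tgfbr1. Bmp4 holds 3 GC boxes, of which 2 overlap, and Tgfbr1 holds 3, while Tgfb3 and Tgfb2 hold 0. Over all 33469 windows of this length, 33.1% hold a GC box. Of the other genes, Tgfbr2, Tgfbr3 and Bambi hold 1 each, and Tgfb1 and Inhba hold 0. An E2F motif (TTTCCCGC, TTTCGCGC, TTTGCCGC or TTTGGCGC on either strand) was found in 2.14% of all windows, the AP-1 motif TGANTCA in 7.33% and the FOXO motif TGTTTAC in 3.78%. These letters occur in 0 of the 9 windows, which says nothing about binding elsewhere.

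**Figure D1:**
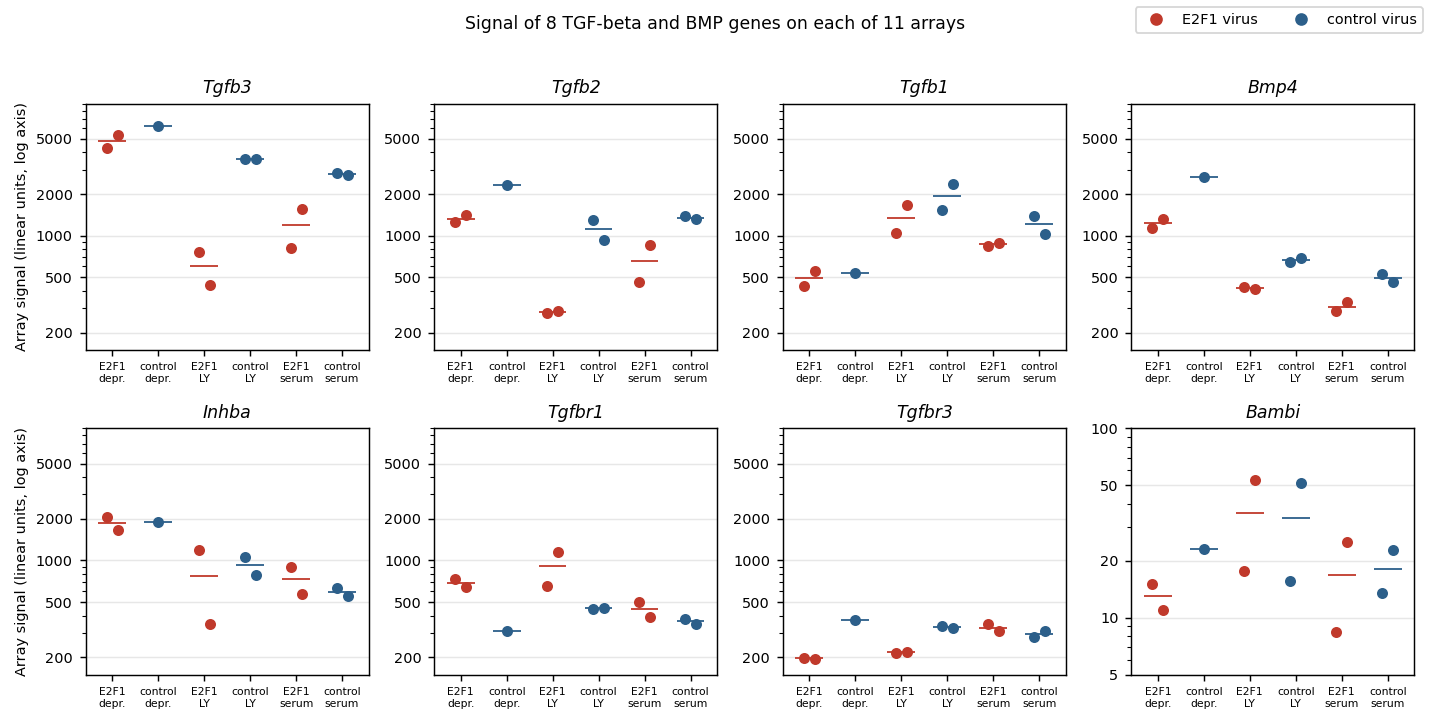
Signal (linear units, log axis) of the brighter probe set of 8 genes on each of 11 arrays; red points are E2F1 virus, blue points control virus, lines are group means, and the groups run from deprivation through serum with LY294002 (LY) to serum. Bambi has its own axis. Tgfb3 sits between 444 and 1563 on the 4 E2F1 arrays with serum and at 2741 or more on every control virus array.

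On average over the 3 media, E2F1 cells had less Tgfb3, Tgfb2, Bmp4 and Tgfbr3 signal and more Tgfbr1 signal than control virus cells, while Tgfb1, Inhba and Bambi did not pass the test. limma, with Benjamini-Hochberg adjustment over all 15866 probe sets, called 6 of the 11 probe sets (adjusted p under 0.05), 5 lower and 1 higher. Of all probe sets, 16.5% were called in this comparison, 7.25% lower and 9.23% higher. The median log2 change was -0.37 over the 11 probe sets and -0.04 over all. All changes are on the log2(signal + 16) scale, which understates the change of dim probe sets, with standard errors. In RNA from whole cultures, a change in every cell and a change in the share of cells that make the transcript cannot be told apart. Separate arrays of the viruses within a medium, given for each gene below, are common. E2F1 arrays lay below in 52% of all probe sets in deprivation, 23.1% with LY294002 and 23.4% in serum. They lay above in 31.8%, 21% and 31.5%. The share so placed in every medium at once was not computed.

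Tgfb3 encodes TGF-beta 3, and its median signal over the 11 arrays was 2817. In deprivation its signal was 4305 and 5377 in E2F1 cells, against 6256 in control virus cells. In serum with LY294002 it was 763 and 444 in E2F1 cells, against 3613 and 3587 in control virus cells, and in serum 822 and 1563 in E2F1 cells, against 2817 and 2741 in control virus cells. In every medium each E2F1 array lay below the control virus arrays, but the deprived E2F1 arrays lay above the control virus arrays of the other media. The order of group means was control virus deprived (6256), E2F1 deprived (4841), control virus with LY294002 (3600.0), control virus in serum (2779), E2F1 in serum (1193) and E2F1 with LY294002 (604), and no neighbours in that order overlapped. The average change was -1.42 ± 0.21 (2.67-fold lower, limma adjusted p = 0.00463).

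Tgfb2 encodes TGF-beta 2, the ligand that depends most on betaglycan. Its brighter probe set gave 1251 and 1408 in deprived E2F1 cells, against 2313 in deprived control virus cells. With LY294002 it gave 275 and 285 in E2F1 cells, against 1301 and 935 in control virus cells, and in serum 464 and 858 in E2F1 cells, against 1389 and 1319.6 in control virus cells. E2F1 arrays were below control virus arrays in each medium. The average change was -1.26 ± 0.18 (2.40-fold lower, limma adjusted p = 0.00395). The other probe set of Tgfb2, with signals from 137 to 2003, gave -1.33 ± 0.25 (adjusted p = 0.0111). Over the 11 arrays the log2 values of Tgfb2 and Tgfb3 had a Pearson r of 0.94, as a description of arrays that share groups and media.

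Tgfb1 encodes TGF-beta 1, and its signal was lower on every deprived array than on any array with serum. The share of all probe sets so placed was not computed. In deprivation its signal was 433 and 554 in E2F1 cells, against 537 in control virus cells. With LY294002 it was 1048 and 1655 in E2F1 cells, against 1543 and 2348.5 in control virus cells, and in serum 839 and 891 in E2F1 cells, against 1396 and 1024 in control virus cells. The arrays of the viruses overlapped in deprivation and with LY294002 and were separate in serum. The average change of -0.37 ± 0.19 did not pass the test (limma adjusted p = 0.228), and its 95% interval ran from -0.81 to 0.06.

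Bmp4 encodes a BMP ligand that signals through SMAD1, SMAD5 and SMAD9. In deprivation its signal was 1131 and 1323 in E2F1 cells, against 2671 in control virus cells. With LY294002 it was 425 and 410.3 in E2F1 cells, against 643 and 689 in control virus cells, and in serum 285 and 329.6 in E2F1 cells, against 527 and 465 in control virus cells. E2F1 arrays lay below control virus arrays in every medium, and deprived arrays of either virus lay above all arrays with serum. The share of all probe sets with deprived arrays so placed was not computed. Over the media Bmp4 changed by -0.81 ± 0.11 (1.76-fold lower, limma adjusted p = 0.00301). The order of group means was control virus deprived (2671), E2F1 deprived (1227), control virus with LY294002 (666), control virus in serum (496), E2F1 with LY294002 (418) and E2F1 in serum (307), with no overlap between neighbours.

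Inhba encodes the beta A subunit of activin A. Its signal was 2064 and 1662 in deprived E2F1 cells, against 1885 in deprived control virus cells. With LY294002 it was 1192 and 349 in E2F1 cells, against 1068 and 779 in control virus cells, and in serum 890.4 and 569 in E2F1 cells, against 634 and 550.4 in control virus cells. The viruses overlapped in every medium, and the pair of E2F1 arrays with LY294002 spanned the range of all arrays with serum. The average change was -0.08 ± 0.32 (limma adjusted p = 0.9), with a 95% interval from -0.81 to 0.65 that leaves room for changes of either sign.

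Tgfbr1 encodes the type I receptor kinase for TGF-beta. Its brighter probe set gave 738 and 642 in deprived E2F1 cells, against 308 in deprived control virus cells. With LY294002 it gave 655 and 1157 in E2F1 cells, against 449.8 and 452 in control virus cells, and in serum 499 and 389 in E2F1 cells, against 377 and 349.8 in control virus cells. E2F1 arrays lay above control virus arrays in every medium, and the highest array was the second E2F1 array with LY294002, which also had a 3' to 5' difference of 0.90. The average change was 0.77 ± 0.17 (1.71-fold higher, limma adjusted p = 0.0188).

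The other probe set of Tgfbr1 did not show this rise. It lay between 57.0 and 130.2, below the median probe set on all 11 arrays, with an average change of 0.01 ± 0.18 (limma adjusted p = 0.97). Centring each array on its median turned the sign of that value, which then rounded to 0.00. The call of the brighter probe set was lost without the 3 deprived arrays, where the average over the other 2 media was 0.60 (adjusted p = 0.136), without the first deprived E2F1 array (0.74, adjusted p = 0.0591), without replicate 2 of control virus cells in serum (0.75, adjusted p = 0.0501) and without replicate 1 of E2F1 cells in serum (0.71, adjusted p = 0.0553).

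Tgfbr3 encodes betaglycan. Its brighter probe set gave 198 and 195 in deprived E2F1 cells, against 372 in deprived control virus cells. With LY294002 it gave 215 and 218 in E2F1 cells, against 335 and 323 in control virus cells, and in serum 348 and 307 in E2F1 cells, against 282 and 309 in control virus cells. E2F1 arrays were the lower ones in deprivation and with LY294002, while in serum the arrays of the viruses overlapped. The average change was -0.43 ± 0.10 (1.35-fold lower, limma adjusted p = 0.0198).

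The other probe set of Tgfbr3, at 71.1 to 150.1 and below the median probe set on all 11 arrays, gave 0.06 ± 0.17 (limma adjusted p = 0.867). The call of the brighter probe set was lost without the 3 deprived arrays (-0.21 over the other 2 media, adjusted p = 0.346). It was also lost without the first deprived E2F1 array (-0.44, adjusted p = 0.0599), the second (-0.43, 0.0573), replicate 2 of control virus cells in serum (-0.41, 0.0563) or the second E2F1 array in serum (-0.40, 0.0531).

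Bambi was near the floor of the array. Its signal was 15.0 and 11.0 in deprived E2F1 cells, against 23.0 in deprived control virus cells. With LY294002 it was 17.6 and 53.6 in E2F1 cells, against 15.7 and 51.2 in control virus cells, and in serum 8.35 and 25.2 in E2F1 cells, against 13.5 and 22.8 in control virus cells. It lay below the median probe set on all 11 arrays and under 16 on 5, and the arrays of a pair differed more than the viruses did in serum and with LY294002. The average log2 change was -0.15 ± 0.29 (limma adjusted p = 0.779), and no fold is given at these signals.

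**Figure D2:**
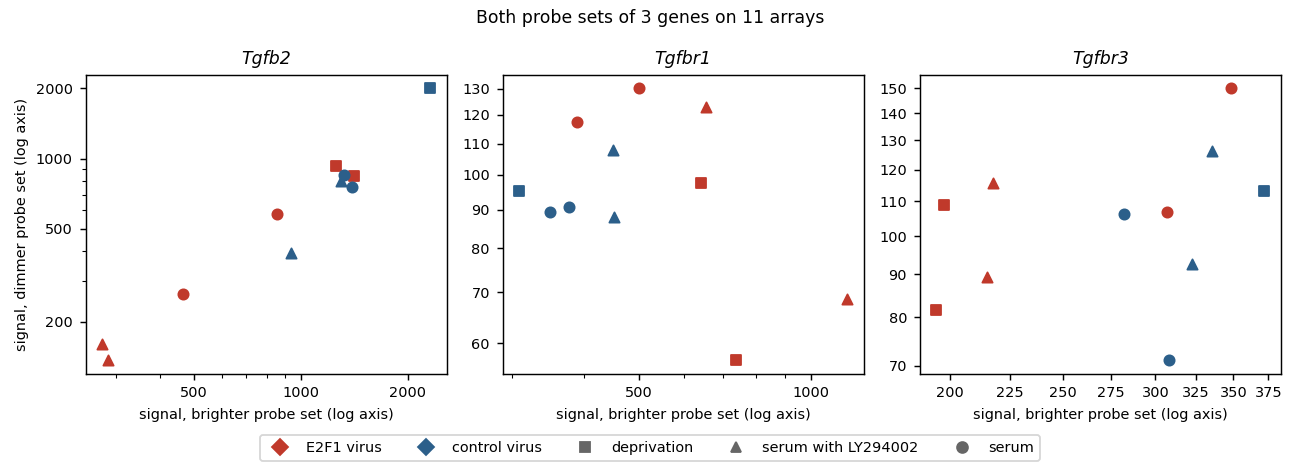
Signal of the dimmer against the brighter probe set of Tgfb2, Tgfbr1 and Tgfbr3 on 11 arrays (log axes); red is E2F1 virus, blue control virus, squares deprivation, triangles serum with LY294002 and circles serum. The 2 probe sets of Tgfb2 run along a line, while the dimmer probe set of Tgfbr1 (57.0 to 130.2) does not follow the brighter one. The dimmer probe set of Tgfbr3 lies between 71.1 and 150.1.

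Medium by medium, the decreases were called for Tgfb3 and Tgfb2 with LY294002 and for Bmp4 in deprivation. In serum with LY294002, limma called 3 of the 11 probe sets, all lower, against 5.41% of all probe sets (1.63% lower, 3.78% higher). The change was -2.59 ± 0.34 for Tgfb3 (6.04-fold lower, adjusted p = 0.0126), -1.92 ± 0.29 for Tgfb2 (3.78-fold lower, adjusted p = 0.0163) and -1.82 ± 0.41 for its other probe set (adjusted p = 0.0451). Bmp4 at -0.65 ± 0.17 (adjusted p = 0.0684), Tgfbr3 at -0.57 ± 0.15 (0.0752) and Tgfbr1 at 0.93 ± 0.27 (0.0914) did not pass. The arrays of the viruses did not overlap for 6 probe sets, 5 with E2F1 below and 1 above, where 23.1% and 21% of all probe sets were so placed.

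These calls rest on few arrays. Without the second E2F1 array with LY294002, which had the high 3' to 5' difference, Tgfb3 was at -2.21 (limma adjusted p = 0.0497) and Tgfb2 at -1.94 (0.0616), and without replicate 1 of control virus cells with LY294002 Tgfb2 was at -1.69 (0.0631). With either left out, fewer of the 11 probe sets were called, as were fewer of all probe sets. The other probe set of Tgfb2 passed in 9 of 22 alternatives (adjusted p from 0.0224 to 0.22). It was lost without either deprived E2F1 array (-1.82, 0.0857), either array of control virus cells in serum (-1.82, 0.0783), either E2F1 array with LY294002 (-1.92 and -1.71, 0.0761 and 0.153) or replicate 1 of control virus cells with LY294002 (-1.32, 0.156), and in 6 other alternatives, among them an offset of 1 (-1.92, 0.0675), the replicate block (-1.82, 0.0669) and array weights (-1.82, 0.157). The part of RNA quality in the result was not tested.

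In deprivation, with 2 E2F1 arrays against 1 control virus array, 1 of the 11 probe sets was called, against 2.87% of all (0.681% lower, 2.19% higher). Bmp4 was at -1.12 ± 0.21 (2.17-fold lower, limma adjusted p = 0.0372). Tgfbr3 was at -0.87 ± 0.19 (adjusted p = 0.0532), Tgfbr1 at 1.12 ± 0.33 (0.113), Tgfb2 at -0.79 ± 0.36 (0.255) and Tgfb3 at -0.38 ± 0.42 (0.658), none of which passed. The Bmp4 call was lost without the first deprived E2F1 array (-1.01, adjusted p = 0.184), without the second (-1.23, 0.122), and without either array of control virus cells in serum (-1.12, 0.0653) or of E2F1 cells in serum (-1.12, 0.0676). Without either E2F1 array with LY294002, more of the 11 probe sets were called, as were more of all probe sets. Both E2F1 arrays lay below the control virus array for 7 of the 11 probe sets and above it for 1. Of all probe sets, 52% and 31.8% were so placed. All 3 deprived arrays had a high 3' to 5' difference, 0.56 and 0.51 with E2F1 against 0.76 with control virus, whose part in the result was not tested.

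In serum without inhibitor, 0 of the 11 probe sets were called, against 0.353% of all, and 4 had an unadjusted p under 0.05 (2465 over all probe sets). The values were -1.28 ± 0.34 for Tgfb3 (limma adjusted p = 0.139), -1.08 ± 0.29 for Tgfb2 (0.14), -1.01 ± 0.41 for its other probe set (0.296) and -0.67 ± 0.17 for Bmp4 (0.127). The arrays of the viruses did not overlap for 8 of the 11 probe sets, 5 with E2F1 below and 3 above, where 23.4% and 31.5% of all probe sets were so placed. Those below were Tgfb1, Tgfb3, Bmp4 and both of Tgfb2, and those above were both of Tgfbr1 and the dimmer of Tgfbr3.

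**Figure D3:**
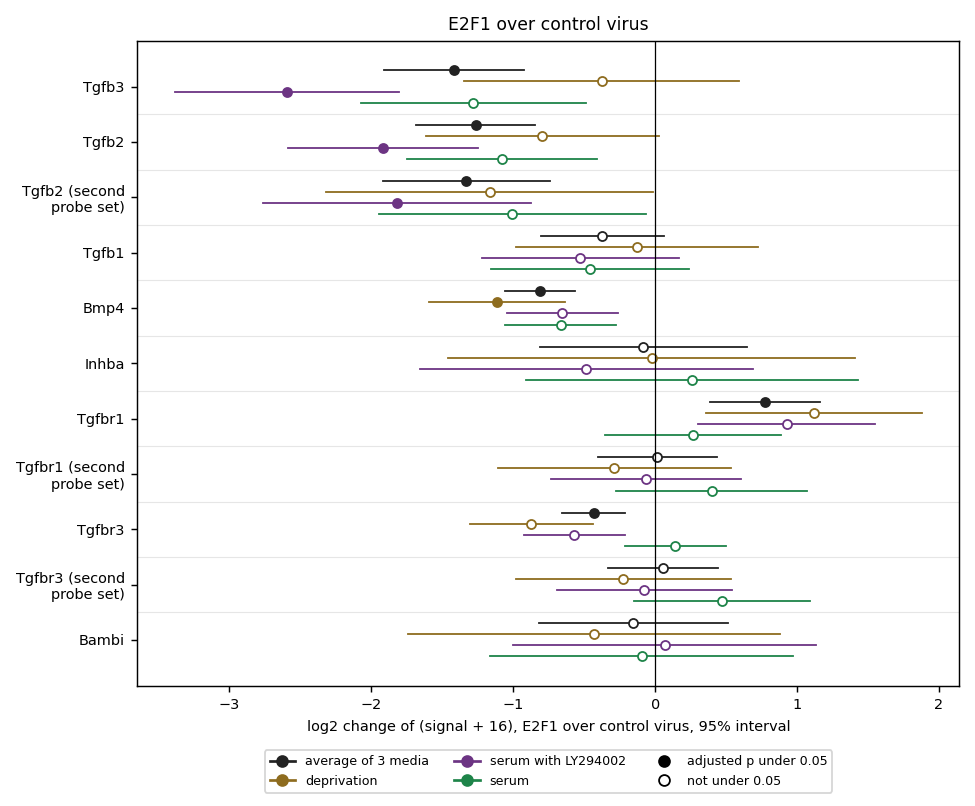
Log2 change of (signal + 16), E2F1 over control virus, for 11 probe sets with 95% intervals: average of 3 media (black), deprivation (brown), serum with LY294002 (purple) and serum (green). Filled points passed an adjusted p of 0.05; the lowest is Tgfb3 with LY294002 at -2.59.

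Whether the E2F1 effect itself differed between media was tested for 2 pairs, and limma called 0 of the 11 probe sets in each, as it called 0% of all probe sets. Unadjusted p-values were under 0.05 for 2 of the 11 in the first test (LY294002 minus none; 998 over all probe sets) and for 1 in the second (deprivation minus serum; 1542 over all). The first gave -1.31 ± 0.48 for Tgfb3 (adjusted p = 0.759) and -0.71 ± 0.22 for Tgfbr3 (adjusted p = 0.735). The second gave -1.01 ± 0.24 for Tgfbr3 (adjusted p = 0.348) and 0.90 ± 0.54 for Tgfb3 (adjusted p = 0.626). The calls with LY294002 are therefore not shown to be particular to that medium.

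The comparison of deprivation with serum sets the same genes side by side in these media after infection. The 3' to 5' difference was 0.51 to 0.76 on the deprived arrays and 0.12 to 0.19 on the serum arrays compared. RNA integrity thus differed along with the medium, and its part in the result was not tested. Bmp4 was the gene that passed in cells with either virus, at 1.94 ± 0.17 in E2F1 cells (3.84-fold higher in deprivation, limma adjusted p = 0.0138) and 2.39 ± 0.21 in control virus cells (5.25-fold higher, adjusted p = 0.0175). It was the 1 of 11 probe sets called in each, against 0.233% of all in E2F1 cells and 0.24% in control virus cells. Tgfb3 was at 2.07 ± 0.34 in E2F1 cells (adjusted p = 0.0674) and 1.17 ± 0.42 in control virus cells (0.284), and Inhba at 1.36 ± 0.51 (0.21) and 1.65 ± 0.62 (0.304). Tgfb1 had the other sign, -0.80 ± 0.30 in E2F1 cells (adjusted p = 0.212) and -1.13 ± 0.37 in control virus cells (0.245). For these 4 ligands every deprived array lay outside the range of the serum arrays of the same virus, a common placement: of all probe sets, 23.1% lay above and 37% below in E2F1 cells, and 44.9% above and 34.5% below in control virus cells.

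Tgfbr3 in E2F1 cells was at -0.69 ± 0.15 in deprivation over serum (limma adjusted p = 0.0955), and Tgfb2 at 1.05 ± 0.29 (0.141). The deprived E2F1 arrays differed from serum by -0.10 in the median of all probe sets, and centring the arrays on their medians moved this to 0.01. Centred, Tgfb3 passed in E2F1 cells at 2.18 (adjusted p = 0.0408), and Bmp4 was at 2.05 (0.0192). The Bmp4 call in E2F1 cells was lost when either array of deprived E2F1 cells (2.05 and 1.83, adjusted p = 0.111 and 0.193), of E2F1 cells in serum (1.84 and 2.04, 0.133 and 0.0919) or of control virus cells in serum (1.94, 0.0642) was left out. Without either E2F1 array with LY294002, 2 probe sets were called. In control virus cells, which have 1 deprived array, the call was lost when either serum array of these cells was left out (2.48 and 2.31, 0.091 and 0.136) or either array of deprived E2F1 cells (2.39, 0.0516).

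**Figure D4:**
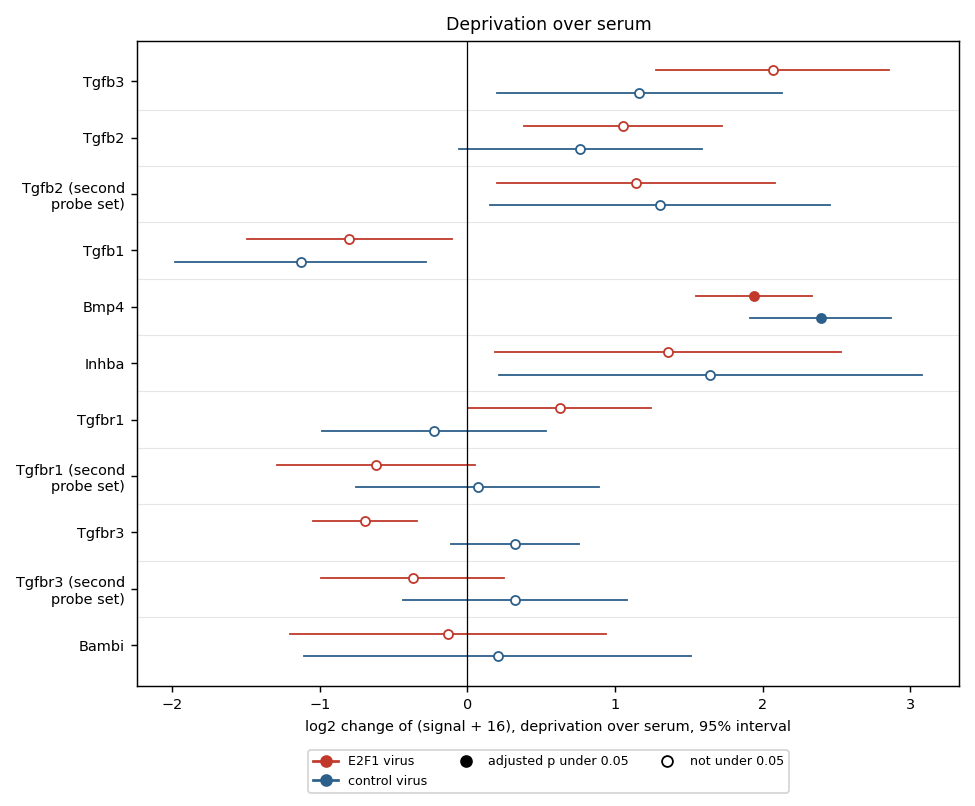
Log2 change of (signal + 16), deprivation over serum, for 11 probe sets with 95% intervals, in E2F1 virus cells (red, 2 arrays against 2) and control virus cells (blue, 1 against 2). Filled points passed an adjusted p of 0.05: Bmp4 at 1.94 with E2F1 virus and 2.39 with control virus.

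LY294002 against serum alone gave 0 called probe sets of 11 in E2F1 cells and 0 in control virus cells, and 0% of all probe sets in each. In E2F1 cells 6 of the 11 had an unadjusted p under 0.05 (1769 over all probe sets), and in control virus cells 1 had (1050 over all). In E2F1 cells the values were -1.13 ± 0.29 for Tgfb2, -0.94 ± 0.34 for Tgfb3, -0.56 ± 0.15 for Tgfbr3 and 0.96 ± 0.27 for Tgfbr1, with limma adjusted p-values from 0.426 to 0.439. In control virus cells they were -0.29 ± 0.29 for Tgfb2, 0.37 ± 0.34 for Tgfb3, 0.15 ± 0.15 for Tgfbr3 and 0.30 ± 0.27 for Tgfbr1, with adjusted p-values from 0.831 to 0.848. Tgfb1 was at 0.60 ± 0.30 in E2F1 cells (adjusted p = 0.481) and 0.66 ± 0.30 in control virus cells (0.743). Bmp4, the 1 probe set with an unadjusted p under 0.05 in control virus cells, was at 0.42 ± 0.17 there (adjusted p = 0.742). In E2F1 cells it was at 0.43 ± 0.17 (0.441). These comparisons share arrays with those of E2F1 against control virus. Without the first E2F1 array with LY294002, 1 of the 11 probe sets was called in E2F1 cells, and 325 of all 15866.

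Other genes of the pathway were read from 6 lists in the average over media, each gene by its brightest probe set, beside a median of -0.04 over all probe sets, of which 9.23% were called higher and 7.25% lower. Among other ligands, 15 of 20 were measured, 1 was higher and 0 lower, with a median of -0.03. The one called was Inhbb, the beta B subunit of activin (0.78 ± 0.12, limma adjusted p = 0.00537), a dim probe set between 52.1 and 171. Inhbb was also called higher with LY294002 (0.89 ± 0.20) and in deprivation (1.45 ± 0.24), where 3.78% and 2.19% of all probe sets were called higher. Among receptors and co-receptors, 11 of 14 were measured, 1 was higher and 0 lower, with a median of -0.04.

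Neo1, which encodes neogenin, a receptor for netrins and for the repulsive guidance molecules that act as BMP co-receptors, was the receptor that passed. Its signal was 431 and 425 in deprived E2F1 cells, against 86.8 in deprived control virus cells. With LY294002 it was 454 and 513 in E2F1 cells, against 147 and 99.8 in control virus cells, and in serum 389.9 and 349 in E2F1 cells, against 126 and 118 in control virus cells. All E2F1 arrays lay above all control virus arrays, as they did for 6.05% of all probe sets. Over the media Neo1 changed by 1.82 ± 0.12 (3.52-fold higher, limma adjusted p = 0.000479), and it was called in every medium, at 2.11 ± 0.24 in deprivation (adjusted p = 0.0198), 1.86 ± 0.20 with LY294002 (0.00677) and 1.48 ± 0.20 in serum (0.0435). Of all probe sets, 2.19%, 3.78% and 0.29% were called higher in these media.

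Among SMADs and their intracellular regulators, 17 of 20 were measured, 2 were higher and 2 lower, with a median of -0.04. Smad3, which carries the TGF-beta signal, was lower (-0.82 ± 0.14, limma adjusted p = 0.00768), as was the corepressor Tgif1 (-0.58 ± 0.15, 0.0391). Higher were Trim33, a ubiquitin ligase that binds SMADs (0.74 ± 0.19, 0.0359), and Strap, which binds TGF-beta receptors and dampens their signal (0.52 ± 0.13, 0.028). With LY294002 Smad3 was at -1.17 ± 0.23 (0.0316) and Tgif1 at -1.08 ± 0.25 (0.048). These were the 2 of the 17 called there, where 1.63% of all probe sets were called lower and 3.78% higher. Of 17 measured among 27 extracellular activators and antagonists, 1 was higher and 1 lower, with a median of -0.22: Ltbp4, which stores latent TGF-beta in the matrix (0.56 ± 0.15, 0.0427), and the secreted glycoprotein Fstl1 (-0.51 ± 0.13, 0.0294).

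Of 20 genes known to respond to TGF-beta, 18 were measured, 2 were higher and 7 lower, with a median of -0.53, where 9.23% of all probe sets were called higher and 7.25% lower. The lower ones were the transcriptional repressors Bhlhe40 (-1.25 ± 0.21, limma adjusted p = 0.00685) and Snai1 (-0.87 ± 0.12, 0.00359), the contractile genes Cnn1 (-1.22 ± 0.30, 0.0311), Tpm1 (-0.87 ± 0.10, 0.00188), Acta2 (-0.67 ± 0.15, 0.0195) and Tagln (-0.55 ± 0.10, 0.00952), and the AP-1 subunit Junb (-0.65 ± 0.11, 0.00761). Tagln was named after its values were seen. The higher ones were Klf10, a zinc finger factor induced early by TGF-beta (0.95 ± 0.20, 0.0149), and the metalloproteinase inhibitor Timp1 (0.76 ± 0.14, 0.0088). The matrix genes Ccn2 (-0.22 ± 0.11, 0.248) and Fn1 (-0.12 ± 0.12, 0.547), picked after their values were seen, did not pass.

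With LY294002, 1 of the 18 was higher and 5 were lower, with a median of -0.71 against -0.04 over all probe sets, of which 3.78% were called higher and 1.63% lower. Tpm1, a tropomyosin, gave 2260.3 and 1978 in E2F1 cells with LY294002, against 6123 and 6284 in control virus cells. Its change was -1.55 ± 0.16 (limma adjusted p = 0.00663), and that of Bhlhe40 was -1.99 ± 0.34 (0.0221). In deprivation 1 of the 18 was lower, Junb (-1.09 ± 0.22, 0.0461), against 0.681% of all probe sets, and in serum 0 of the 18 passed, against 0.353% of all. The contractile and matrix genes are also genes of the fibroblast itself, and this list shares Col1a1, Col1a2 and Fn1 with the fibroblast markers.

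Of 11 genes known to respond to BMP, 8 were measured, 1 was higher and 1 lower, with a median of -0.13. Id3, an inhibitor of basic helix-loop-helix factors, was lower (-0.52 ± 0.11, limma adjusted p = 0.0164). In deprivation, where Bmp4 was called, Id3 gave 2912 and 3434 in E2F1 cells, against 6930.3 in control virus cells (-1.13 ± 0.21, 0.0392). Atoh8 of the same list, at 482 and 454 in deprived E2F1 cells against 114 in deprived control virus cells, was higher there (1.89 ± 0.33, 0.0317). In deprivation 1 of the 8 was thus higher and 1 lower, against 2.19% and 0.681% of all probe sets. In the average over media Id1 was at -0.61 ± 0.19 (0.0639) and Id2 at -0.24 ± 0.16 (0.353). Id4 had the other sign, at 0.69 ± 0.26 (0.11). Id1, Id2 and Id4, picked after their values were seen, did not pass the threshold. Atoh8, a basic helix-loop-helix factor, was higher in that average (1.33 ± 0.17, 0.00265).

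**Figure D5:**
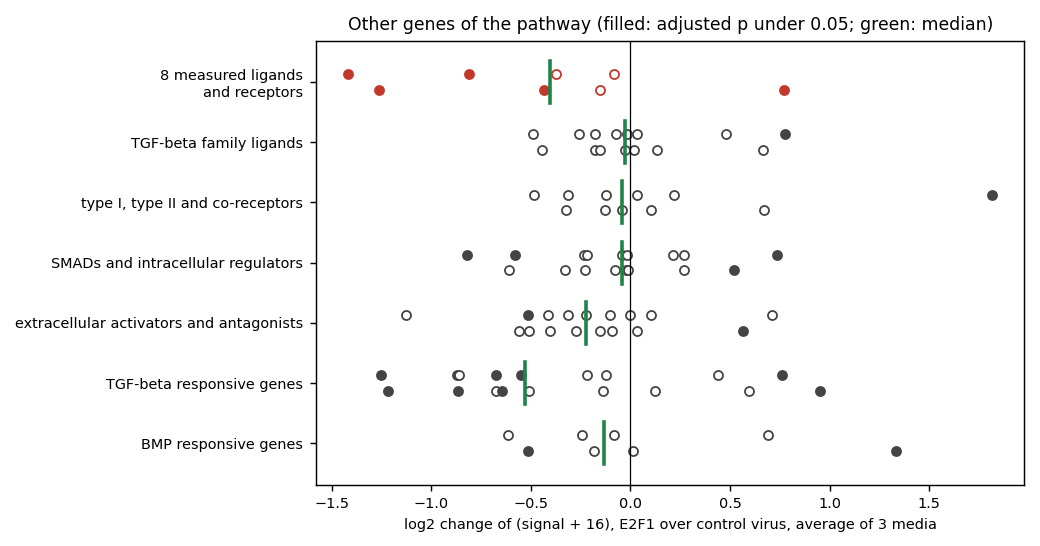
Log2 change of (signal + 16), E2F1 over control virus, averaged over 3 media, of the 8 genes (red) and of 6 lists of other pathway genes (grey), a point a gene; filled points passed an adjusted p of 0.05 and green lines are medians. The TGF-beta responsive list has a median of -0.53, and Neo1 is the receptor at 1.82.

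The genes most like each of the 8 in pattern over the 11 arrays were sought among 6822 probe sets of other genes at or above the median level, by Pearson correlation of log2(signal + 16). For Tgfb3 they were Cav1, which encodes caveolin 1 (r = 0.98), and the myosin light chain Myl9 (0.98), and for Tgfb2 the actin-associated Palld (0.98) and the peptidase Cpq (0.98). For Bmp4 they were Itpr1 (0.97) and Pip5k1c (0.97), for Tgfb1 Tmbim6 (0.96) and Mrfap1 (0.95), and for Tgfbr1 Mideas (0.97) and Nr4a3 (0.96). Tgfbr3 had Thap3 (0.94) and Smyd5 (0.91), Inhba had Kdm2a (0.90) and Tmed8 (0.88), and Bambi had Ndufa6 (0.91) and Rpl7 (0.91). These values describe arrays that share groups, and with 6822 candidates high values are found for any pattern. Among the 8 genes themselves, each by its brighter probe set, Tgfb2 and Tgfb3 were the closest pair (0.94). Tgfbr1 and Tgfbr3 ran in opposite directions (-0.78), as did Tgfb1 and Inhba (-0.71). The dimmer probe set of Tgfbr1 did not follow the brighter one. For Tgfbr3 the 2 probe sets differed in the average of E2F1 over control virus (-0.43 for the brighter, 0.06 for the dimmer). They had the same sign in deprivation over serum, at -0.69 and -0.37 in E2F1 cells and 0.32 and 0.32 in control virus cells.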

How the data were processed

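RNA of REF52 cells (6 µg a sample, labelled with biotin, per the labels' protocols) was hybridised to 11 arrays. The deposited table holds linear signal intensities for each array. MAS5 and RMA appear in the submitters' processing notes, without their role or version. Precision is limited by the number of arrays. Of 15923 probe sets, 57 controls were left out. Of the 15866 tested, 12783 have 1 symbol in the platform annotation, 312 several and 2771 none, and 12748 of the symbols were found in RefSeq (GRCr8), with 0 changed. Only probe sets with 1 symbol were named.

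Signals were taken as log2(signal + 16) without further scaling, since array medians spanned 0.25. A model with 1 mean for each of 6 groups was fitted with limma 3.58.1 in R 4.3.3 (5 residual degrees of freedom), with Benjamini-Hochberg adjustment within each of 10 comparisons and a threshold of 0.05. The spread of the lone deprived control virus array is taken from the other groups. No fold is given where a compared group mean lies under 32. The steps were tested on simulated data. Alternatives were quantile normalization, median centring, offsets of 1 and 64, leaving out the dimmest 30% of probe sets, array weights, trend and robust settings, a replicate block, the compared groups alone and leaving out each array. Fits without both second arrays with LY294002 and without the 3 deprived arrays were added after seeing the data.

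The members and lists were chosen with earlier results of these data known. The genes named are the members, up to 3 called genes per pathway list, direction and comparison, and the 2 most like each member. Besides these, some cell type markers are named, and genes said to be picked after their values were seen.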

Additional observations from a re-analysis of the deposited data

Results flagged for a closer look

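In 6 cases every array of a group moved one way in one setting and the opposite way in another. With 1 or 2 arrays a group this is not rare: it held for 3 of the 11 probe sets and 17.3% of all in deprivation over serum, for 2 and 5.63% in LY294002 over none, and for 1 and 14.5% in E2F1 over control virus in deprivation and serum. The difference itself was tested with limma in each case, and none passed (adjusted p from 0.348 to 0.759).

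With LY294002 over serum alone, Tgfb3 was at -0.94 in E2F1 cells and 0.37 in control virus cells (adjusted p of the difference = 0.759), and the brighter probe set of Tgfbr3 was at -0.56 in E2F1 cells and 0.15 in control virus cells (0.735). In deprivation over serum, the brighter probe set of Tgfbr3 was at -0.69 in E2F1 cells and 0.32 in control virus cells (0.348). The 2 probe sets of Tgfbr1 disagreed here: the brighter was at 0.63 in E2F1 cells and -0.23 in control virus cells (0.554), and the dimmer at -0.62 in E2F1 cells and 0.0686 in control virus cells (0.655). The dimmer probe set of Tgfbr3 was at -0.23 for E2F1 over control virus in deprivation and 0.47 in serum (0.629). Each value in deprivation that involves control virus cells rests on 1 deprived array.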

How the results depend on the processing

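The count of called probe sets in the average over media stayed at 6 under every planned change of scaling, offset, filter or weights. Calls over all probe sets ran from 2217 (offset of 1) to 3078 (offset of 64) in these settings, against 2615. With an array left out, some of the 6 calls were lost in some fits. Calls over all probe sets moved too with an array left out, in this and the comparisons below. The count was 4 without the 3 deprived arrays (1071 of all probe sets, against 2615). In that comparison Tgfb3, Bmp4 and both probe sets of Tgfb2 passed in all 20 alternatives, with limma adjusted p-values of at most 0.0447; Tgfbr1 passed in 16 and Tgfbr3 in 15. For E2F1 with LY294002, 5 in place of 3 were called with an offset of 64 or without the dimmest 30% (1247 and 1311 of all probe sets, against 858), 2 with an offset of 1 (449 of all), 0 with array weights (51 of all), with the compared groups alone and without both second arrays with LY294002 (0 of all), and 1 to 3 with an array left out. For E2F1 in deprivation, 0 in place of 1 were called after centring, with an offset of 1, with the replicate block and with the compared groups alone, 2 with an offset of 64, without the dimmest 30% and with trend and robust settings, 3 with array weights and without both second arrays with LY294002, and 0 to 2 with an array left out. Calls over all probe sets moved too, to 190 with an offset of 1, 131 with the block, 807, 774 and 697 in the settings that gave 2, and 1223 and 1094 in those that gave 3, against 456. For deprivation over serum in E2F1 cells, 2 in place of 1 were called with quantile normalization, centring, an offset of 64, without the dimmest 30% and with trend and robust settings, 4 with array weights (1173 of all probe sets, against 37), 3 without both second arrays with LY294002 (966 of all), 0 with the compared groups alone, and 0 to 2 with an array left out. In control virus cells it was 0 in place of 1 with the replicate block (3 of all, against 38) and with the compared groups alone, and 0 to 1 with an array left out. For LY294002 over none in E2F1 cells it was 0 to 1. Some of the fits had fewer arrays, and the cause of these changes was not tested. The replicate numbers were not taken as pairs in the main fit. Deviations of same-numbered arrays correlated above 0.1 in 1 of 10 pairs of groups (range -0.02 to 0.30). That pair was E2F1 and control virus with LY294002, at 0.30. In those groups the second arrays thus deviated together, and the cause was not tested. With the replicate block 6 probe sets were called in the average and 2 in E2F1 with LY294002. Scaling or offset turned the sign only of uncalled values near 0: the dimmer Tgfbr1 probe set, Bambi, Inhba, and the differences of Tgfb1 and Bmp4.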

Other observations

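Pdgfrb, a fibroblast marker and the beta receptor for platelet-derived growth factor, ran from 262 to 4193 over the 11 arrays and was lower in E2F1 cells on average over media (-1.90, limma adjusted p = 0.0109). It was picked after its values were seen.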
